A study of Mus musculus with 8 samples.

Results

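Expression of 10 genes was followed across 4 mouse pro-B cell lines: Gfra1, Nov, Nrxn2, Crhbp, Trpc6, Mc1r, Spp1, Sox15, Cpe and Gdpd3. They encode receptors, a channel, secreted proteins, enzymes and a transcription factor known mainly from tissues other than lymphoid ones, and they were chosen by name, out of 23908 gene symbols, because their levels in these same libraries were high in some lines and low in others. Their levels are therefore given as a description, without a test. All 10 are listed in every library, Cpe at 0 in 6 of the 8. The deleted lines were CBE line 1 and CBE line 2, a pair of lines that the labels also call IGCR1-/-, and the Eµ-deleted line, labelled Eµ-/-. They were set against a wild-type (WT) line. The study's purpose is not stated in the labels beyond these genotypes. Each line was represented by 2 RNA-seq libraries of polyadenylated RNA, 8 in all, from untreated cultured cells of bone marrow origin and the 129SV strain. Every genotype other than CBE-/- was represented by a single line, so a difference between genotypes and a difference between individual lines cannot be told apart, and the labels do not say how the lines were made or whether the 2 libraries came from separate cultures. The p-values below therefore reflect variation from library to library only, and that variation may be technical.

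Pro-B cells are the stage of B cell development at which the heavy chain gene is being assembled by V(D)J recombination. IGCR1 is a control region between the variable and diversity segments of that locus whose activity depends on binding elements for CTCF (CBEs), and Eµ is the intronic enhancer of the same locus. None of the 10 genes lies on the chromosome of that locus, and none reports on the deletions themselves. In other tissues, GFRα1 is the co-receptor that presents the neurotrophic factor GDNF to the kinase RET, neurexin 2 is a presynaptic adhesion receptor, and TRPC6 is a calcium-permeable channel best known from podocytes and smooth muscle. NOV (CCN3) and osteopontin (SPP1) are secreted matrix-associated proteins, and CRHBP is a secreted protein that binds corticotropin-releasing hormone. Carboxypeptidase E trims peptide hormones in secretory granules. The melanocortin 1 receptor controls pigment type in melanocytes, SOX15 is an SRY-related transcription factor, and GDPD3 is a lysophospholipase D that releases lysophosphatidic acid.

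The members fell into a few patterns over the 4 lines. Gfra1, Nov and Trpc6 were on in the CBE lines and in WT, with values near 0 in the Eµ-deleted cells. Gdpd3 and Mc1r were on in the Eµ-deleted line and in WT and low in both CBE lines. Sox15, Spp1 and Nrxn2 were highest in WT, Crhbp was lowest in WT, and Cpe had a value above 0 in CBE line 2 alone. The label of on and near 0 did not describe all of them: Spp1 stayed at 7.61 FPKM or more in every library, and Crhbp was at about 1 FPKM in WT. FPKM corrects fragment numbers for transcript length and sequencing depth, so levels of different genes can be set beside each other per length. In bulk RNA, fewer cells expressing a gene and less RNA per cell cannot be told apart.

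To show the starts of members that moved together, 100 bases before the RefSeq transcript start are given for Gfra1 and Trpc6, which were near 0 in the Eµ-deleted line, and for Gdpd3 and Mc1r, which were low in both CBE lines. The sequences are from RefSeq on GRCm38.p6, read 5′ to 3′ on the gene's own strand, with capitals marking CG dinucleotides. They lie at chr19:58455399-58455498 (minus strand), chr9:8544042-8544141, chr7:126766314-126766413 and chr8:123406982-123407081 (the last 3 on the plus strand).
Gfra1: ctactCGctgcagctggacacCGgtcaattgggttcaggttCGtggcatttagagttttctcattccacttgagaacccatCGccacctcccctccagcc
Trpc6: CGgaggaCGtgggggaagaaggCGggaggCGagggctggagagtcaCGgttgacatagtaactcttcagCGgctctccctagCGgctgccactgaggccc
Gdpd3: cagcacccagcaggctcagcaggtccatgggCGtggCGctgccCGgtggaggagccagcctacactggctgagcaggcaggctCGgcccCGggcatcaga
Mc1r: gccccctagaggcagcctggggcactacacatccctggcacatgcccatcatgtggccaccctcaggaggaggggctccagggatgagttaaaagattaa

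In the full window of 300 bases, from 250 before to 50 after the start, Gfra1 held 12 CG dinucleotides and Trpc6 held 17. Gdpd3 held 7 and Mc1r held 4, where the median over 32851 mouse promoter windows of that length was 7. The promoter table held 7 of the 10 members, with 8 windows, because Spp1 had 2. Nov, Nrxn2 and Cpe had no entry. The remaining windows held 9 CG dinucleotides in Crhbp, 5 in Sox15 and 3 in each Spp1 window. On either strand, the letters TATAAA stood in a window of Crhbp and of Spp1 and in 13.6% of all windows. The letters TGTGGT, which Runx factors bind, and CAGGTG, which E proteins bind, each stood in a window of Sox15 and of Spp1, against 16.8% and 20.2% of all windows. The E-box CACGTG stood in none of the 8, against 7.15% of all windows. These matches are letters in a window and no more.

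Gfra1 (chr19:58310071-58529888 in mm9) encodes the GPI-anchored co-receptor for GDNF. It was measured at 25.1 and 26.0 FPKM in CBE line 1, at 24.5 and 24.6 FPKM in CBE line 2 and at 0.163 and 0.268 FPKM in the Eµ-deleted line, against 38.4 and 40.1 FPKM in WT. The libraries of no 2 lines overlapped, and WT was the highest line. The mean in the Eµ-deleted line, 0.216 ± 0.0742 FPKM (SD, n = 2), was 182-fold lower than the WT mean of 39.2 ± 1.17 FPKM (SD, n = 2). The CBE lines, by contrast, stayed within 1.6-fold of WT.

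Nov (chr15:54577483-54585316) encodes a matricellular protein of the CCN family that binds integrins and Notch1. It reached 97.4 and 200.5 FPKM in CBE line 1 and 49.8 and 69.5 FPKM in CBE line 2. In the Eµ-deleted line it was at 0.256 and 0.360 FPKM, against 47.6 and 41.6 FPKM in WT. CBE line 1 was the highest line, and its libraries differed 2.06-fold from each other. CBE line 2 lay above WT in both libraries, but the difference of the means was smaller than the sum of the 2 SDs. The Eµ-deleted line was 145-fold lower than WT.

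Trpc6 (chr9:8544142-8680741) showed the same order at lower levels. It was at 9.20 and 15.8 FPKM in CBE line 1 and at 10.2 and 14.3 FPKM in CBE line 2. In the Eµ-deleted line it was at 0.0196 and 0.0133 FPKM, against 6.52 and 5.53 FPKM in WT. The ranges of the 2 CBE lines overlapped, and both lay above WT. The deposited confidence intervals of both libraries of the Eµ-deleted line reached 0, so no ratio to that line is given. Across all 8 libraries Pearson's r on log2(FPKM + 1) was 0.982 between Nov and Trpc6, 0.941 between Gfra1 and Nov and 0.922 between Gfra1 and Trpc6, a description over 8 libraries of 4 lines in which the low line carries most of the range.

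Gdpd3 (chr7:133909928-133919159) encodes the lysophospholipase D. It was at 0.122 and 0.130 FPKM in CBE line 1 and at 0.123 and 0.0945 FPKM in CBE line 2. It was at 47.7 and 68.7 FPKM in the Eµ-deleted line, against 81.0 and 85.6 FPKM in WT. The 2 CBE lines overlapped each other and lay far below the other lines. The mean was 660-fold lower than WT in CBE line 1 and 765-fold lower in CBE line 2. These ratios rest on few reads in the CBE libraries, where the deposited intervals ran from 0.00998 to 0.179 FPKM in CBE line 2 replicate 2 and from 0.0358 to 0.209 FPKM in CBE line 1 replicate 1. The Eµ-deleted line was 1.43-fold lower than WT.

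Mc1r (chr8:125930982-125934647) encodes the melanocortin 1 receptor, which signals through cyclic AMP. Its levels were 0.0918 and 0.396 FPKM in CBE line 1 and 0.575 and 1.09 FPKM in CBE line 2. They were 17.2 and 22.5 FPKM in the Eµ-deleted line, against 48.6 and 57.5 FPKM in WT. All 4 lines were separate. CBE line 1 was 218-fold lower than WT, although its own libraries differed 4.32-fold, and the Eµ-deleted line was 2.67-fold lower. Mc1r and Gdpd3 had an r of 0.983 over the 8 libraries, and Mc1r was higher in replicate 2 than in replicate 1 in 4 of 4 lines, as were Crhbp and Gfra1.

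Sox15 (chr11:69468539-69470229), the transcription factor, was at 0.878 and 0.502 FPKM in CBE line 1, 0.0760 and 0.0700 FPKM in CBE line 2 and 0.556 and 0.699 FPKM in the Eµ-deleted line. WT stood alone at 21.04 and 19.17 FPKM. CBE line 1 and the Eµ-deleted line overlapped. CBE line 2 was lowest, with deposited intervals that reached 0 in both libraries.

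Spp1 (chr5:104864130-104870072) encodes osteopontin, a ligand of integrins and CD44. It was at 27.1 and 20.6 FPKM in CBE line 1, 7.61 and 7.95 FPKM in CBE line 2 and 13.3 and 7.94 FPKM in the Eµ-deleted line. WT was at 139.1 and 203.7 FPKM. CBE line 2 and the Eµ-deleted line overlapped. The mean was 22.0-fold lower in CBE line 2 than in WT, a graded difference between lines that all expressed the gene. Spp1 and Sox15 had an r of 0.958 over the 8 libraries.

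Nrxn2 (chr19:6418738-6533217), the neurexin, was at 0.967 and 1.90 FPKM in CBE line 1, 3.63 and 3.45 FPKM in CBE line 2 and 0.200 and 0.178 FPKM in the Eµ-deleted line, against 18.1 and 16.9 FPKM in WT. The 4 lines were separate, in the order WT, CBE line 2, CBE line 1, Eµ-deleted line. The Eµ-deleted line was 92.6-fold lower than WT.

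Crhbp (chr13:96201331-96214786) encodes the binding protein for corticotropin-releasing hormone and ran the other way. It was at 25.3 and 41.5 FPKM in CBE line 1, 26.1 and 32.2 FPKM in CBE line 2 and 83.9 and 123.6 FPKM in the Eµ-deleted line, against 0.970 and 1.03 FPKM in WT. Every library of the deleted lines lay above both WT libraries. The 2 CBE lines overlapped, and the Eµ-deleted line, the highest, was 104-fold higher than WT.

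Cpe (chr8:67071349-67171837), the peptide hormone carboxypeptidase, was at 9.97 and 9.70 FPKM in CBE line 2. It was listed at 0 in both libraries of CBE line 1, the Eµ-deleted line and WT, so no ratio is given. The 2 lines of the CBE genotype thus differed in Cpe.

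**Figure D1:**
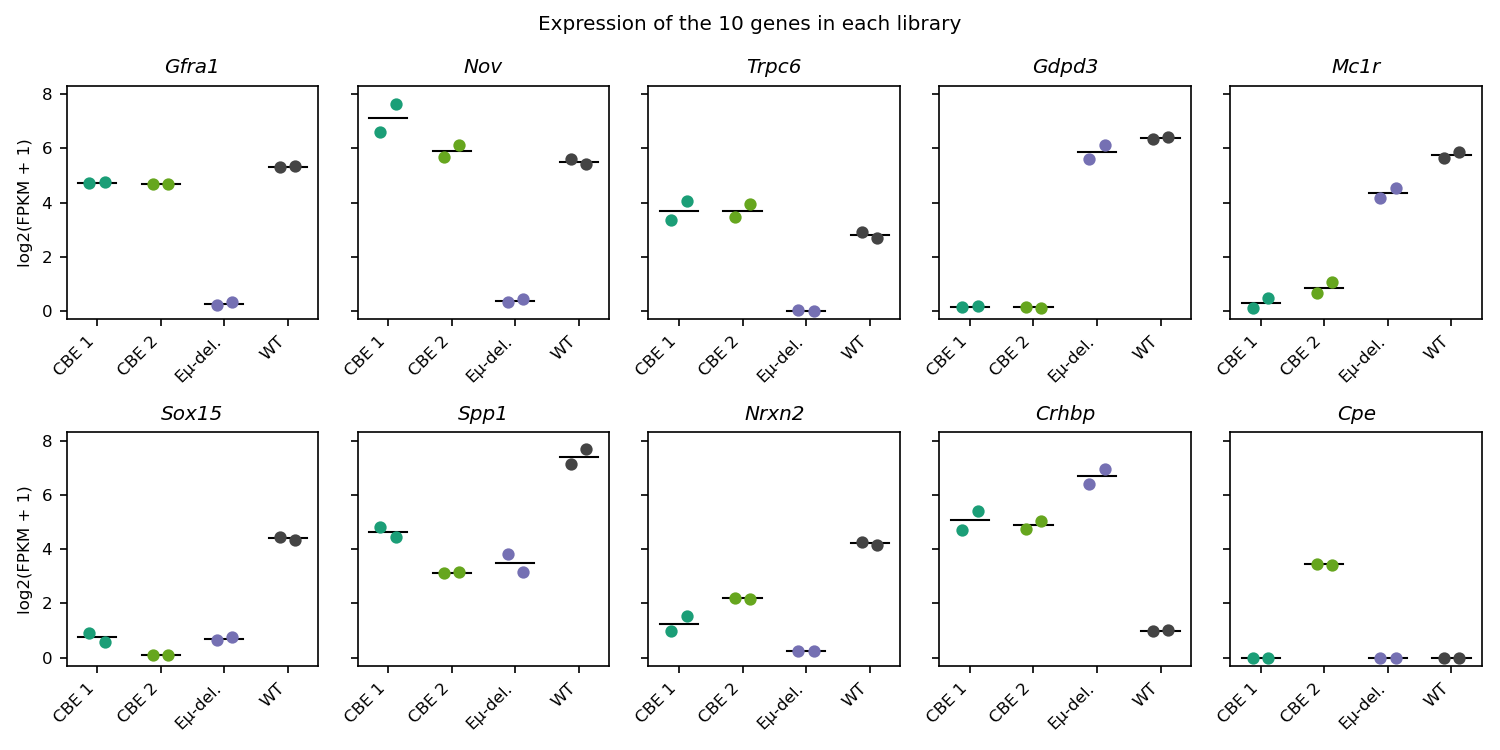
Each panel plots log2(FPKM + 1) of one gene, with points for the 2 libraries and a bar for the mean of each line, in the order CBE line 1, CBE line 2, Eµ-deleted line and WT. Gfra1, Nov and Trpc6 sit near 0 in the Eµ-deleted line, Gdpd3 near 0 in both CBE lines, Crhbp lowest in WT, and Cpe above 0 in CBE line 2.

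The scale of such patterns over all genes was counted with a fixed rule: 5 FPKM or more in both libraries of one line and under 0.5 FPKM in both libraries of another. It held for 184 of 23908 symbols, or 0.77%, and for 8 of the 10 members, which had been picked for such a pattern. Crhbp and Spp1 did not meet it, and Mc1r met it through CBE line 1 only, since its 0.575 FPKM in CBE line 2 replicate 1 lay just over the lower limit. Gfra1, Nov and Trpc6 were 3 of the 6 genes on in both CBE lines and WT and off in the Eµ-deleted line. Gdpd3 was the only gene on in the Eµ-deleted line and WT and off in both CBE lines. Cpe was 1 of 9 genes on in CBE line 2 and off in the other 3 lines. Sox15 was 1 of 6 genes on in WT and off in CBE line 2, and Nrxn2 1 of 4 on in WT and off in the Eµ-deleted line, with levels between the limits in the remaining lines. The most frequent pattern, 28 genes off in WT and on in the other 3 lines, held no member. With limits of 10 and 0.1 FPKM the rule held for 63 symbols and 2 members. On values rescaled to TPM, in which each library has the same total, it held for 265 symbols and 5 members.

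Many genes that accompany the members in their own pathways were at or near 0. The share of such genes listed at 0 was close to that of all genes. Of 139 ligands, receptors, processing enzymes and family members of the 10 genes, 42 were listed at 0 in all libraries and 87 stayed under 0.5 FPKM in all, while 47 reached 1 FPKM in any library. These shares of 30.2%, 62.6% and 33.8% compare with 31.9%, 52.7% and 44.7% of all 23908 symbols. All 7 genes of the corticotropin-releasing hormone system other than Crhbp stayed under 0.5 FPKM. These include the hormone gene Crh, its relative Ucn and the receptors Crhr1 and Crhr2, which were listed at 0 in every library. Gdnf, the ligand of the Gfra1 and Ret complex, was listed at 0 in every library, and Ret itself peaked at 1.06 FPKM in CBE line 2 replicate 1 and was not tested. The melanocortin receptors Mc2r, Mc3r, Mc4r and Mc5r were listed at 0 in every library. So were the granule genes Chga, Scg2, Pcsk1 and Pcsk2, which act beside carboxypeptidase E in endocrine cells. Of 19 genes in the list of other Sox genes with Foxk1, 17 stayed under 0.5 FPKM in all libraries.

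Over all 10479 tested genes, limma called 19.4% different between CBE line 1 and WT, 18.7% between CBE line 2 and WT, 21.8% between the Eµ-deleted line and WT and 10.2% between CBE line 2 and CBE line 1 (Benjamini-Hochberg adjusted p under 0.05, differences on the log2(FPKM + 1) scale). With the replicate number as a block these shares were 30.0%, 28.8%, 34.00% and 16.57%. The first 3 comparisons share the WT libraries. The shares of all 4 comparisons also moved in fits without 1 library. Such a fit leaves 1 library in that line. A lower share there does not show that the calls rested on the library left out. The median difference over all tested genes was 0.0202, 0.0381, 0.0060 and 0.0250 on the log2 scale in the 4 comparisons.

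Of the 139 partner genes, 45 were expressed highly enough to be tested. The partner lists were chosen with earlier results of these data known. The shares below are therefore a description, and an excess over all genes is not evidence about the members' pathways. In CBE line 1 against WT, 12 were higher and 7 lower, 42.2% against 19.4% of all genes (10.9% higher and 8.54% lower), with a median of -0.04. In CBE line 2 against WT, 13 were higher and 2 lower, 33.3% against 18.7% (10.5% higher and 8.19% lower), with a median of 0.21. In the Eµ-deleted line against WT, 11 were higher and 7 lower, 40.0% against 21.8% (11.3% higher and 10.4% lower), with a median of 0.06. Between CBE line 2 and CBE line 1, 6 were higher and 1 lower, 15.6% against 10.2% (5.17% higher and 5.03% lower), with a median of 0.09. With the replicate block this last count was 13, 28.9% against 16.6% of all genes. Quantile normalization changed the split to 9 higher and 11 lower for CBE line 1, and to 9 higher and 5 lower for CBE line 2. The other splits that moved by more than 10 percentage points were 15 higher and 5 lower for CBE line 2 as TPM, and 6 higher and 2 lower between the CBE lines with median-of-ratios scaling. The counts fell in some fits without 1 library and rose in others. Such a fit leaves 1 library in that line. The numbers called over all genes moved in those fits too, so the partner counts there are not given as a result about the partners.

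Among partners of Spp1, the integrin subunit Itga5, part of the fibronectin receptor, was at 0.0127 and 0.0226 FPKM in CBE line 1, 0 and 0.00786 FPKM in CBE line 2 and 0 and 0.00849 FPKM in the Eµ-deleted line, against 2.71 and 2.98 FPKM in WT. It was lower than WT by limma in all 3 lines, with log2 differences of -1.92, -1.94 and -1.94 (SE 0.082) and adjusted p of 1.97e-05, 1.56e-05 and 1.85e-05. WT, the line with the most Spp1, was thus the line in which Itga5 was detected above 1 FPKM. Another integrin subunit gene of the list, Itga4, went the other way and was lowest in WT, at 7.49 ± 0.720 FPKM. It averaged 17.5 ± 3.72 FPKM in CBE line 1, 11.2 ± 0.444 FPKM in CBE line 2 and 13.6 ± 0.390 FPKM in the Eµ-deleted line (SD, n = 2 each). Itgb3, whose product pairs with αV as an osteopontin receptor, was at 2.11 and 1.53 FPKM in CBE line 2 and at 0.0974 and 0.121 FPKM in CBE line 1, a log2 difference of 1.34 (SE 0.12, limma adjusted p = 0.000921). WT had 1.30 and 1.17 FPKM. Cd44, another osteopontin receptor, was at 0.918 and 0.976 FPKM in WT, where it was highest, and was not tested.

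Among partners of Nov, the Notch target gene Hes1 was at 6.20 and 18.5 FPKM in CBE line 1, 6.75 and 14.9 FPKM in CBE line 2 and 6.47 and 13.9 FPKM in the Eµ-deleted line, against 0.689 and 1.18 FPKM in WT. All libraries of the deleted lines lay above WT, and in each line the second library was higher. By limma the log2 differences were 2.63, 2.53 and 2.46 (SE 0.57), with adjusted p of 0.0215, 0.0242 and 0.0259. The calls were lost without WT replicate 1 (adjusted p = 0.118, 0.138 and 0.141) or WT replicate 2 (adjusted p = 0.0931, 0.0972 and 0.104), and without replicate 2 of CBE line 1 (0.0731), of CBE line 2 (0.149) or of the Eµ-deleted line (0.118), each in that line's own comparison. Hes1 was high in the Eµ-deleted line, where Nov was near 0.

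Among partners of Nrxn2, Cask, a scaffold kinase that binds the tail of neurexins, was at 0.450 and 0.480 FPKM in CBE line 2 and at 1.88 and 1.92 FPKM in CBE line 1, a log2 difference of -0.99 (SE 0.079, limma adjusted p = 0.000566). Cask was at 0.0242 FPKM or less in Eµ-deleted cells and in WT.

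For Gfra1, the related co-receptor Gfra2, which prefers neurturin, was on in every line. It was at 13.5 and 9.75 FPKM in CBE line 1, 21.7 and 18.6 FPKM in CBE line 2 and 22.8 and 16.8 FPKM in the Eµ-deleted line, against 7.95 and 5.81 FPKM in WT. By limma it was higher than WT in CBE line 2, by 1.43 (SE 0.22, adjusted p = 0.00500). It was also higher in Eµ-deleted cells than in WT, by 1.40 (SE 0.22, limma adjusted p = 0.00583, and 0.0509 without WT replicate 2). In CBE line 1 the difference of 0.68 had an adjusted p of 0.0791 by limma. For Trpc6, the channel gene Trpc4 was at 2.92 and 4.51 FPKM in the Eµ-deleted line and at 0.498 and 0.472 FPKM in WT, higher by 1.65 on the log2 scale (SE 0.16, limma adjusted p = 0.000666). In the CBE lines, Trpc4 stayed between 0.365 and 0.487 FPKM. The Eµ-deleted line was thus the line with the most Trpc4 and the least Trpc6.

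For Mc1r, the E3 ligase gene Mgrn1, whose loss darkens the mouse coat, was at 5.80 and 7.72 FPKM in CBE line 1, 7.30 and 7.91 FPKM in CBE line 2 and 7.76 and 10.1 FPKM in the Eµ-deleted line, against 1.15 and 0.948 FPKM in WT. It was higher than WT by limma in each line, by 1.91, 2.07 and 2.27 on the log2 scale (SE 0.17) with adjusted p of 0.000430, 0.000245 and 0.000198. For Cpe, the peptide-amidating enzyme gene Pam was at 2.37 and 2.92 FPKM in CBE line 1 and 3.13 and 3.13 FPKM in CBE line 2, with at most 0.0129 FPKM in the Eµ-deleted line and 0.00283 and 0 FPKM in WT. Pam was higher than WT by limma in CBE line 1, by 1.86 (SE 0.099, adjusted p = 4.89e-05), and in CBE line 2, by 2.04 (SE 0.099, adjusted p = 2.59e-05). Both CBE lines thus expressed Pam, while Cpe was above 0 in CBE line 2 alone.

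For Gdpd3, the partners included receptors for its product and parallel lipid enzymes. Lpar1, a receptor for lysophosphatidic acid, was at 8.17 and 10.9 FPKM in CBE line 2 and at 0.767 and 1.12 FPKM in CBE line 1, a log2 difference of 2.43 (SE 0.28, limma adjusted p = 0.00263). In WT it was at 4.15 and 5.62 FPKM, and CBE line 1 was lower than WT by limma (log2 difference -1.59, SE 0.28, adjusted p = 0.00870), a call that leaving out WT replicate 2 (adjusted p = 0.0738) ended, as did leaving out CBE line 1 replicate 1 (adjusted p = 0.0534). Abhd4 and Napepld, which release N-acylethanolamines or their precursors, were also higher in CBE line 2 than in CBE line 1. Abhd4 had 6.89 and 6.74 FPKM in CBE line 2 and 2.32 and 3.16 FPKM in CBE line 1 (log2 difference 1.07, SE 0.13, limma adjusted p = 0.00308). Napepld had 1.35 and 1.28 FPKM in CBE line 2 and 0.279 and 0.341 FPKM in CBE line 1 (log2 difference 0.82, SE 0.091, limma adjusted p = 0.00233). Gdpd3 itself was near 0 in both CBE lines.

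**Figure D2:**
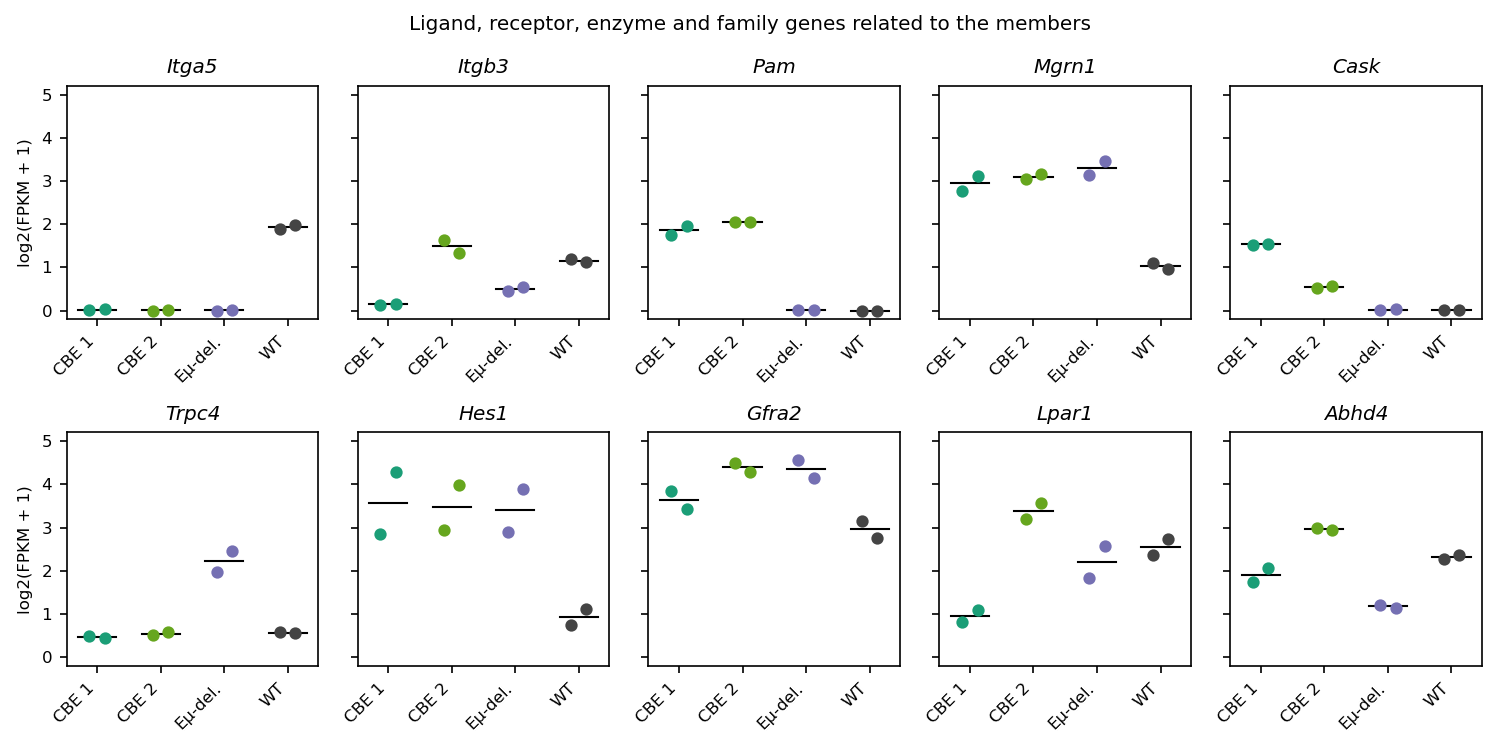
Each panel plots log2(FPKM + 1) of one partner gene in the 2 libraries of CBE line 1, CBE line 2, the Eµ-deleted line and WT, with a bar for the mean of each line. Itga5 is above 1 FPKM in WT alone, Pam in both CBE lines, Mgrn1 is lowest in WT, and Trpc4 is highest in the Eµ-deleted line.

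Genes next to the members were examined for changes over a wider stretch. Within 100 kb lay 63 genes, of which 37 were tested. The neighbours of Gfra1, Nov and Trpc6 were too low to test. By limma, 3 neighbours were higher and 1 lower in CBE line 1 than in WT, 10.8% against 19.4% of all genes, and 1 was higher and 1 lower in CBE line 2, 5.41% against 18.7%. In the Eµ-deleted line 4 were higher and 2 lower, 16.2% against 21.8%. Between CBE line 2 and CBE line 1, limma called 0 of 37 neighbours, with 3 at an unadjusted p under 0.05, against 10.2% of all genes called. These shares are no higher than those over all genes. Without the filter on low values, 11 of 51 neighbours were called for CBE line 1, 21.6% against 16.1% of all genes, and 9 of 51 for the Eµ-deleted line, 17.6% against 16.9%. The median absolute difference of the neighbours was 0.23, 0.17, 0.23 and 0.13 on the log2 scale in the 4 comparisons, against 0.21, 0.21, 0.24 and 0.16 over all tested genes.

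With the replicate block the neighbour counts were 9 for CBE line 1 (24.3% against 30.0% of all genes) and 4 for CBE line 2 (10.8% against 28.8%). With it they were 9 for the Eµ-deleted line (24.3% against 34.0%) and 1 between the CBE lines (2.70% against 16.6%). The neighbour counts also moved in fits without 1 library, which leave 1 library in that line. The numbers called over all genes moved in those fits too, so the neighbour counts there are not given as a result about the neighbours. The split for the Eµ-deleted line was 4 higher and 1 lower, 5 higher and 1 lower, and 6 higher and 1 lower with median-of-ratios, quantile and TPM scaling, and with the last of these it was 6 higher and 1 lower for CBE line 1 and 4 higher and 1 lower for CBE line 2.

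The closest neighbours of Gdpd3, Mc1r and Sox15 were expressed in lines in which the member was near 0. Mapk3, the ERK1 kinase gene 598 bp from Gdpd3, averaged 43.1 ± 2.47 FPKM in CBE line 1 and 39.3 ± 0.607 FPKM in CBE line 2, where Gdpd3 was near 0, against 35.2 ± 1.39 FPKM in WT (SD, n = 2 each). In the Eµ-deleted line Mapk3 was at 51.1 ± 1.36 FPKM (SD, n = 2) and higher than WT by 0.53 (limma adjusted p = 0.00711, and 0.0510 or 0.0810 without WT replicate 1 or 2). Tubb3, the neuronal β-tubulin gene 817 bp from Mc1r, averaged 30.3 ± 15.4 FPKM in CBE line 1 and 42.5 ± 9.36 FPKM in CBE line 2. It averaged 81.3 ± 16.8 FPKM in the Eµ-deleted line and 52.0 ± 8.50 FPKM in WT (SD, n = 2 each), and was called in no comparison by limma. Its means were thus lowest in the CBE lines, where Mc1r was low, although libraries of CBE line 2 and WT overlapped. The Eµ-deleted line was not tested against the CBE lines. Def8, 32209 bp from Mc1r, was lower than WT by limma in CBE line 1 (log2 difference -0.78, adjusted p = 0.00955, and 0.0793 without WT replicate 1), with 6.08 ± 0.0154 FPKM in CBE line 1 and 11.2 ± 1.31 FPKM in WT (SD, n = 2 each). Its differences of -0.56 in CBE line 2 and -0.66 in Eµ-deleted cells were lost without either WT library (adjusted p = 0.212 and 0.0847, and 0.129 and 0.0577). The difference in the Eµ-deleted line was also lost without Eµ-deleted line replicate 2 (adjusted p = 0.0569). That in CBE line 2 was also lost without CBE line 2 replicate 1 or 2 (adjusted p = 0.127 and 0.204) or CBE line 1 replicate 2 (adjusted p = 0.0502).

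Mpdu1 overlaps Sox15 only from 69470206, where Mpdu1 starts, to 69470229, where Sox15 ends. Mpdu1 stayed at 40.7 ± 0.446 FPKM in CBE line 1, 37.3 ± 3.86 FPKM in CBE line 2 and 36.6 ± 0.882 FPKM in the Eµ-deleted line. It was at 42.5 ± 1.42 FPKM in WT (SD, n = 2 each), with no call by limma. Whether counting used strand is not given, so reads of overlapping genes may have been exchanged. Gm10007, which overlaps Gfra1, was listed at 0 in every library, and LOC102634431, which overlaps Trpc6, averaged 0.0542 FPKM at most. Rasgrp2, 3522 bp from Nrxn2, was higher in CBE line 1 than in WT, with 121 ± 1.20 FPKM in CBE line 1 and 69.4 ± 8.39 FPKM in WT (SD, n = 2 each; log2 difference 0.80, limma adjusted p = 0.00483, and 0.0511 without WT replicate 2). Rasgrp2 was also higher in Eµ-deleted cells than in WT, by 0.61 (limma adjusted p = 0.0145, and 0.116 or 0.0574 without WT replicate 2 or Eµ-deleted line replicate 2). Nrxn2 was highest in WT. Among neighbours too low to test, Slc22a12, 2639 bp from Nrxn2, was also highest in WT, at a mean of 0.0895 FPKM. It averaged 0.00434 FPKM or less in the deleted lines. Cdc42bpg, 93086 bp from Nrxn2, went the other way and was lowest in WT, at 0.102 FPKM. Pkd2, 18404 bp from Spp1, averaged 0.923 FPKM in CBE line 1 and was listed at 0 in the other lines. Further neighbours called by limma differed from WT by 0.80 on the log2 scale or less. Coro1a near Gdpd3 was higher in CBE line 1 (adjusted p = 0.00670, and 0.0771 without WT replicate 2), and Klhl2 near Cpe was higher in Eµ-deleted cells (adjusted p = 0.00711, and 0.0746 without WT replicate 1). The difference of Klhl2 in CBE line 1, 0.36 (limma adjusted p = 0.0421), lost its call without any 1 library of WT, CBE line 1 or CBE line 2 (adjusted p = 0.0855 to 0.251). Wrap53 near Sox15 was higher in CBE line 2 and the Eµ-deleted line (adjusted p = 0.0254 and 0.0137) and lost both calls without WT replicate 1 (adjusted p = 0.124 and 0.0801) or WT replicate 2 (adjusted p = 0.197 and 0.121). Its call in CBE line 2 was also lost when replicate 1 or replicate 2 of that line was left out (adjusted p = 0.158 and 0.186).

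**Figure D3:**
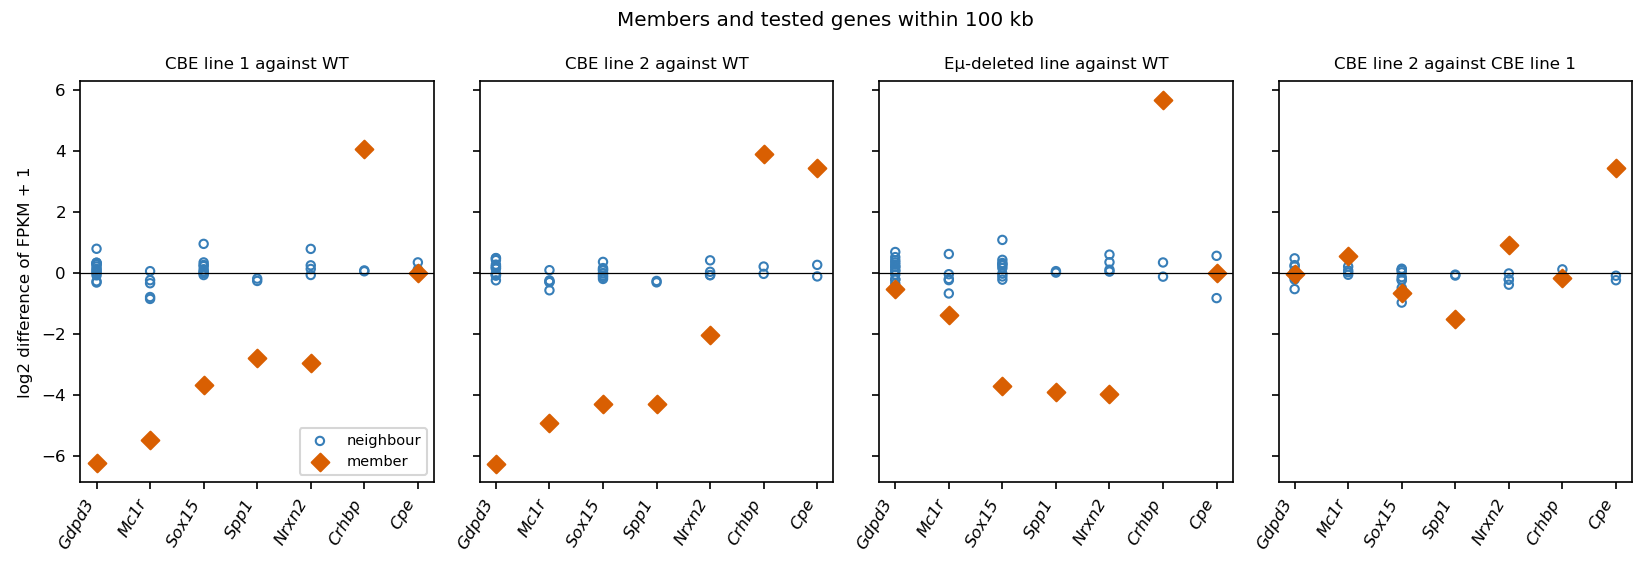
For each of the 7 members with tested neighbours, diamonds show the member's log2 difference of FPKM + 1 and open circles those of the tested genes within 100 kb, in 4 comparisons. The largest absolute difference of a tested neighbour is 1.09, for the microRNA gene Mir467f in the Eµ-deleted line against WT. Mir467f averaged 1.77 ± 2.51 FPKM in that line (SD, n = 2) and was not called by limma (adjusted p = 0.374). Against WT, Gdpd3 lies several log2 units below its neighbours in both CBE lines and Crhbp above its own in all 3 deleted lines, while between the CBE lines both lie near 0.

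The genes most like each member over the libraries were then listed. Likeness was Pearson's r of log2(FPKM + 1) over the 8 libraries, among 452 genes whose line means spanned 2 or more log2 units, with no p because lines were few and the members were picked for their pattern. Enpep, an aminopeptidase gene known as a marker of early B lineage cells, was most like Gfra1 (r = 0.997). It averaged 94.6 ± 6.38 FPKM in CBE line 1, 109 ± 4.48 FPKM in CBE line 2 and 1.59 ± 0.577 FPKM in the Eµ-deleted line, against 172 ± 2.43 FPKM in WT (SD, n = 2 each). Syde1 followed Gfra1 at r = 0.9896. Pcbd1, which encodes a pterin dehydratase, was most like both Nov (r = 0.988) and Trpc6 (r = 0.975), followed by the adenylyl cyclase gene Adcy6 for Nov (r = 0.982) and Rgag4 for Trpc6 (r = 0.974).

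Lmo7 was the most like Mc1r (r = 0.985) and second for Gdpd3 (r = 0.951), with 0.198 ± 0.0485 FPKM in CBE line 1, 0.857 ± 0.0667 FPKM in CBE line 2 and 5.21 ± 0.186 FPKM in the Eµ-deleted line, against 14.0 ± 2.45 FPKM in WT (SD, n = 2 each). Spinkl was first for Gdpd3 (r = 0.961) and Fam195a second for Mc1r (r = 0.950). Sox15 was followed by Apol10b (r = 0.994) and Lgals3bp (r = 0.992), and Spp1 by Phlda3 (r = 0.979) and the lysosomal hexosaminidase gene Hexa (r = 0.976). Nrxn2 was followed by the adaptor gene Dok2 (r = 0.995) and Adc (r = 0.985), and Crhbp by the G protein subunit gene Gng4 (r = 0.993) and Fgf13 (r = 0.992). Zfp783 and Kctd15, the first choices for Cpe, both had an r of 1.00, and 12 genes exceeded 0.99 there, since a gene on in one line alone fixes the pattern. By Spearman's rho, only 1 of these 20 choices was named again.

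**Figure D4:**
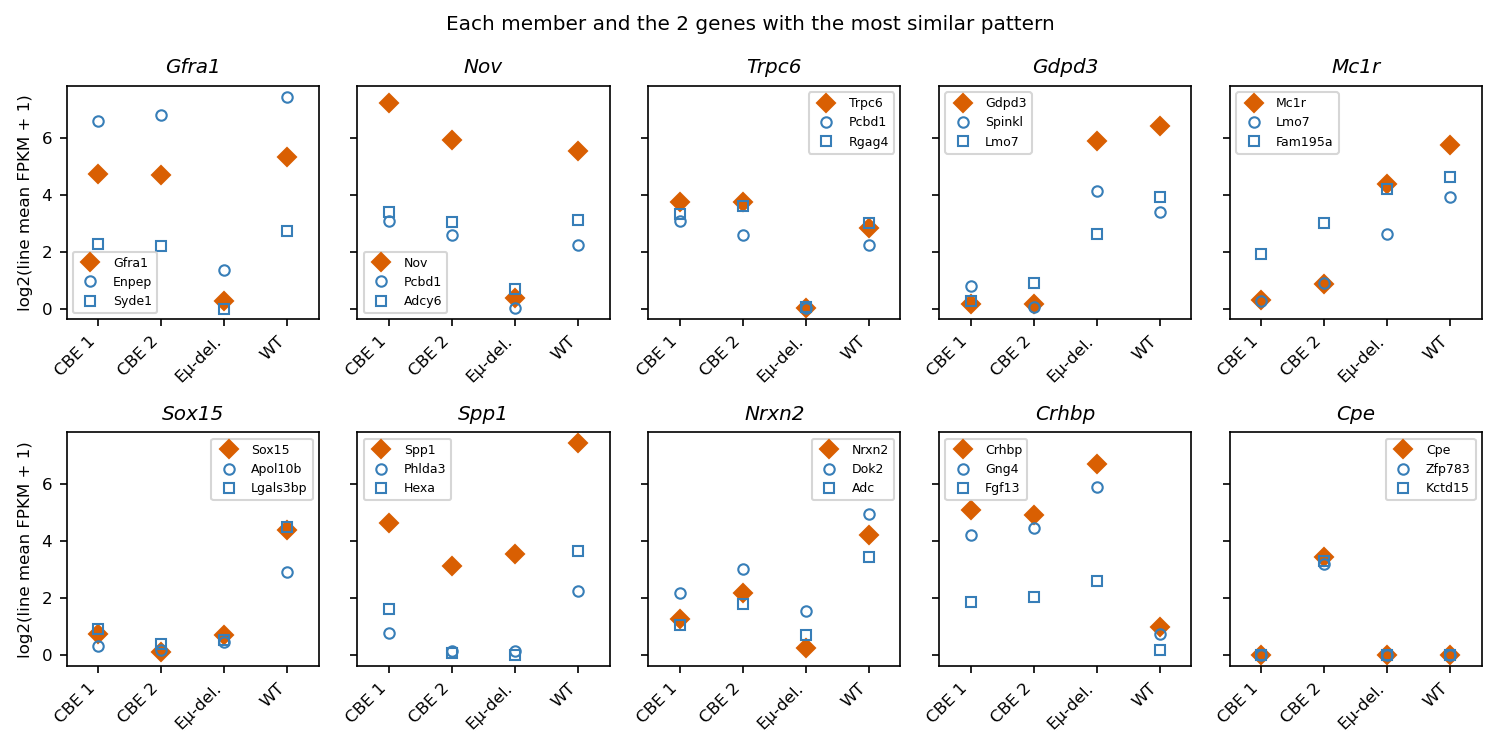
Diamonds show log2 of the line mean FPKM + 1 for each member, with open circles and squares for the 2 genes whose pattern over the libraries was most like it, in CBE line 1, CBE line 2, the Eµ-deleted line and WT. Enpep and Gfra1 are both lowest in the Eµ-deleted line, and Enpep lies above Gfra1 in all 4 lines.

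The label of pro-B cells was checked against marker genes. All 10 pro-B markers were at 1 FPKM or more, led by the surrogate light chain genes Vpreb2 and Vpreb1. Their summed level was 5180 to 5604 FPKM in CBE line 1, 4028 to 4229 FPKM in CBE line 2 and 5400 to 5704 FPKM in the Eµ-deleted line, against 4246 to 5062 FPKM in WT. Stromal, melanocyte, muscle, podocyte and epithelial lists had 0 genes at 1 FPKM or more, with the melanocyte genes Tyrp1, Dct, Mlana and Sox10 and the stromal genes Pdgfra, Dcn and Cxcl12 listed at 0 in every library. Neuronal markers had 2 of 9 genes at that level (Tubb3 and Map2), with Rbfox3, Stmn2, Nefl and Gap43 listed at 0, and neuroendocrine markers 1 of 7 (Insm1), with Chga, Scg2, Pcsk1 and Pcsk2 listed at 0. Bone markers had 1 of 7 (Alpl, which early B lineage cells may express too), with Sp7, Ibsp and Dmp1 listed at 0. Myeloid markers had 3 of 9, led by Lyz2 and Cd68 and with Elane listed at 0, and their sum was 5.27 to 11.95 FPKM in CBE line 1, 3.05 to 3.56 FPKM in CBE line 2 and 4.09 to 5.01 FPKM in the Eµ-deleted line, against 4.50 to 8.52 FPKM in WT. Of the progenitor markers, Tal1 alone, 1 of 7, reached 1 FPKM. Kit, which pro-B cells can also express, was listed at 0 in every library, as were Cd34, Hlf, Mecom and Gata2. The list's sum was 0.911 to 1.09 FPKM in CBE line 1, 1.54 to 1.58 FPKM in CBE line 2 and 2.71 to 2.75 FPKM in the Eµ-deleted line, against 4.46 to 4.53 FPKM in WT. This order of lines is that of Mc1r, and its part in the result was not tested. The deposited tables give no read counts. Pearson's r between libraries over the tested genes was 0.978 to 0.992 within a line and 0.926 to 0.964 between lines.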

How the data were processed

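RNA-seq of 8 libraries from 4 mouse pro-B cell lines was analysed from the deposited FPKM tables. Per the submitters' processing notes, TopHat and Cufflinks were used with mm9, and no source used here gives their settings. Per the labels, libraries came from a stranded mRNA kit; whether counting used strand is not given. Each table listed 24459 entries with FPKM, its confidence interval and a status. Values of a symbol at several loci were summed (277 symbols), and 21 symbols not marked OK were dropped, leaving 23908. The files used give no depth, which is therefore unknown. Taken as 2 SD of a count on each side, the deposited intervals imply 31310000 to 49490000 reads per library, which covers counting error only.

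Differences were tested with limma 3.58.1 in R 4.3.3 on log2(FPKM + 1), with a mean-variance trend, all 8 libraries in one fit of 4 lines (4 residual degrees of freedom) and genes at 1 FPKM or more in 2 libraries or more. A fold change on this scale understates that of low genes. Called means an adjusted p under 0.05 over all 10479 tested genes. Replicate numbers paired the samples: the correlation of same-numbered deviations from the line means was 0.279 to 0.502 over the 6 pairs of lines, so fits with the number as a block are given where they change a result.

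The members and gene lists were chosen with earlier results of these data known. Beside the members, named genes were the 5 called partners and the 5 called neighbours with the largest difference in each comparison, overlapping neighbours, the 2 genes most like each member, and the 2 highest markers of each list. Alternatives covered the pseudocount, filter, scaling, variance model, libraries fitted, block, window and leaving out each library. A fit without 1 library leaves 1 library in that line, so a call lost there does not show that it rested on the library left out. Tables were made with Python 3.11.15. Promoter sequences came from RefSeq (GRCm38.p6); coordinates of genes are those of the files, in mm9, counted from 1.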

Additional observations from a re-analysis of the deposited data

Results flagged for a closer look

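Between CBE line 2 and CBE line 1, which carry the same deletion, 7 of 45 tested partner genes differed by limma. For the 5 with the largest differences, the log2 differences were 2.43 for Lpar1 (adjusted p = 0.00263), 1.34 for Itgb3 (adjusted p = 0.000921), 1.07 for Abhd4 (adjusted p = 0.00308), -0.99 for Cask (adjusted p = 0.000566) and 0.82 for Napepld (adjusted p = 0.00233).

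In some other cases both libraries of one deleted line lay above both WT libraries, and both libraries of another lay below them. The difference between those lines was not tested, and the cases given here are not a full list. For Nov, CBE line 1 and CBE line 2 lay above WT and the Eµ-deleted line below it, with log2 means 6.75 and 5.52 higher in the CBE lines than in the Eµ-deleted line. For Trpc6 the same differences were 3.69 and 3.69, and none of these was tested. For Trpc4 the Eµ-deleted line lay above WT and CBE line 1 below it, 1.75 apart and not tested. Against WT, Trpc4 in CBE line 1 was not called by limma (log2 difference -0.10, adjusted p = 0.706). For Itgb3 and Abhd4 CBE line 2 lay above WT and the Eµ-deleted line below it, by 0.99 and 1.79 and not tested. Against WT, Itgb3 in CBE line 2 was not called by limma (log2 difference 0.33, adjusted p = 0.111).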

How the results depend on the processing

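Of 31 pairs of a named partner or neighbour and a comparison, 15 were called in every alternative that gave them a value, 16 lost the call in at least one and none reversed. Between 15 and 18 alternatives gave a value for a pair. The replicate block changed no call of these 31 pairs. The numbers of genes called were, in the order CBE line 1 against WT, CBE line 2 against WT, Eµ-deleted line against WT and CBE line 2 against CBE line 1, 1056, 1023, 1304 and 369 with a mean of 5 FPKM or more and 3142, 3013, 3563 and 1736 with the replicate block, against 2033, 1960, 2284 and 1069. They were 3527 for CBE line 2 and 1255 for the Eµ-deleted line with only the compared libraries in the fit. Leaving out single libraries gave 784 to 2610, 837 to 2524, 784 to 3260 and 259 to 1373. Partner calls were 7, 4, 9 and 0 with a mean of 5 FPKM or more. Without a filter they were 29 for CBE line 2 and 12 between the CBE lines, with only the compared libraries 23 for CBE line 2, and with the replicate block 13 between the CBE lines. Leaving out single libraries gave 8 to 19, 5 to 19, 6 to 20 and 4 to 10 partners. Neighbour calls for CBE line 1 were 11 without a filter (21.6% against 16.1% of all genes) and 7 as TPM (16.7% against 20.7%). They were 9 with the block (24.3% against 30.0%) and 8 within 250 kb (12.1% against 19.4%). For CBE line 2 they were 4 without a filter (7.84% against 17.0%), 5 with quantile normalization (13.9% against 21.2%) and 5 as TPM (11.9% against 20.2%). They were 6 with only the compared libraries (16.2% against 33.7%) and 4 with the block (10.8% against 28.8%). They were 1 within 50 kb (5.56% against 18.7%) and 9 within 250 kb (13.6% against 18.7%). For the Eµ-deleted line they were 1 with only the compared libraries and 11 within 250 kb. Between the CBE lines they were 3 without a filter, 1 with quantile normalization, 3 as TPM, 1 without the trend, 1 with the block and 3 within 250 kb. Leaving out single libraries gave 1 to 8, 0 to 4, 1 to 12 and 0 to 1 neighbours. The symbols on in one line and off in another numbered 63 at limits of 10 and 0.1 FPKM, 405 at 2 and 0.5 FPKM, and 196 to 217 without single libraries. The causes were not tested. Hes1 lost its calls at a pseudocount of 5 (adjusted p = 0.0557, 0.0687 and 0.0693). The members' log2 range over the line means stayed at 3.41 or more under every scaling and leave-out, and at 1.57 or more with a pseudocount of 5. The reads behind a value differ between genes at the same FPKM, and the deposited intervals reached 0 for Trpc6 in the Eµ-deleted line and for Sox15 in CBE line 2.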
